A study of Mus musculus with 7 samples.

Results

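Vegfa and 9 other genes of blood vessel growth were examined in dendritic cells: the growth factors Vegfa, Vegfb, Vegfc and Pgf, their receptors Kdr and Flt1, the co-receptors Nrp1 and Nrp2, and the secreted factors Angptl4 and Adm. The genes were taken by symbol from the annotated value table. Of the 10 symbols, 9 had a probe set, each exactly 1, among 19505 named genes, and Nrp1 was not analysed here. Values are deposited log2 expression values, where 1 unit is a doubling.

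Type 1 conventional dendritic cells (cDC1), which present captured antigen to CD8 T cells, had been sorted from the spleen. All mice were C57BL/6 and carried tumors of B16-OVA, a melanoma line that makes ovalbumin. There were 3 arrays of wild-type mice (WT) and 4 of CD11c-Cre; OPA1 flox mice (KO), in which Cre under the CD11c promoter acts on floxed Opa1 in every cell type that uses this promoter, not in cDC1 alone. OPA1 fuses the inner membranes of mitochondria. The ages of the mice, and whether each array is a separate mouse, are not given in the sources used here, so p-values measure the spread between these arrays only.

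VEGF-A is the main growth signal of blood vessels. It binds the receptors KDR, which transmits most of the signal, and FLT1, which binds it tightly and signals weakly, while neuropilins act as co-receptors. VEGF-B and placental growth factor, the product of Pgf, bind FLT1 and not KDR, and VEGF-C acts mainly on lymphatic vessels. Myeloid cells and tumor cells can secrete VEGF-A, and low oxygen raises its transcript through HIF.

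The arrays labelled WT 1 and WT 2 stood apart from the other 5, so differences of the 9 genes and medians of the lists are also given for the KO mean minus WT 3 alone. Opa1, the targeted gene, measured 8.14, 8.80 and 9.15 (WT 1 to 3) against 7.70, 7.10, 6.85 and 8.24 (KO 1 to 4), so the groups overlapped, and whether its probes lie in the deleted part is not known here. Cd8a, a marker of spleen cDC1, read 7.89 and 6.96 on WT 1 and WT 2 and 11.95 to 12.12 on the other 5 arrays. The mean of 15 cDC1 markers was 10.88 on WT 1, 9.38 on WT 2, and 11.68 to 11.75 elsewhere. The mean of 23 melanocyte markers was 10.82 and 11.04 on WT 1 and WT 2, 8.74 on WT 3, and 7.55 to 8.03 in KO. In bulk RNA of this kind, fewer cells of a type and less RNA per cell cannot be told apart.

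Vegfa, Nrp2, Kdr and Adm were lower in KO than in WT by 1.79 to 2.68 log2, Pgf was high on WT 2 alone, and Vegfb, Vegfc, Angptl4 and Flt1 did not share this pattern. No difference passed the test over all genes. In limma with Benjamini-Hochberg adjustment 0 of the 9 genes passed an adjusted p of 0.05, as did 0 of all 19505 genes (0%); no gene had an adjusted p below 0.223. Unadjusted, 4 of the 9 had a p under 0.05, all of them lower in KO, where 19.6% of all genes did (10.6% lower and 8.98% higher). The groups did not overlap for 3 of the 9, all lower in KO, where 5.92% of all genes were lower and 7.85% higher without overlap. The mean was lower in KO for 5 of the 9 beside 40.1% of all genes, and by at least 1 log2 for the same 5 beside 3.61%.

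Vegfa (probe set TC1700002162.mm.2) measured 12.04, 12.17 and 9.51 (WT 1 to 3) against 8.53, 8.69, 8.29 and 8.74 (KO 1 to 4). All WT arrays lay above all KO arrays, and WT 3 lay closer to the KO arrays than to the other WT arrays. The means were 11.24 ± 1.50 (SD, n = 3) and 8.56 ± 0.20 (SD, n = 4), a difference of -2.68 with a standard error of 0.59 (limma, adjusted p = 0.223), which is 6.41-fold lower in KO. An exact two-sided permutation test of Vegfa alone gave p = 0.0571, the smallest that 35 splits of these arrays allow. Without WT 3 the difference was -3.55 (limma, adjusted p = 1.44e-06), in a comparison where 25.3% of all genes passed. Against WT 3 alone it was -0.95 (limma, adjusted p = 0.546), with the lone WT array assumed to vary like KO.

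The region upstream of Vegfa is shown because low oxygen raises Vegfa through DNA close to the gene, and that of Nrp2 because its values followed those of Vegfa most closely among the 9 genes. The stretch of Vegfa is chr17:46032378-46032627 on the minus strand and that of Nrp2 is chr1:62703067-62703316 on the plus strand, both from RefSeq on GRCm38.p6 and both ending 1 base before the annotated start.
Vegfa: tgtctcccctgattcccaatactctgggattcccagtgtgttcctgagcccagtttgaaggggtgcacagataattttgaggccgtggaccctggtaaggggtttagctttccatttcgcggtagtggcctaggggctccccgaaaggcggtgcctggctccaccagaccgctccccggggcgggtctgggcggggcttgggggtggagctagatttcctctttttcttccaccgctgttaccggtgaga
Nrp2: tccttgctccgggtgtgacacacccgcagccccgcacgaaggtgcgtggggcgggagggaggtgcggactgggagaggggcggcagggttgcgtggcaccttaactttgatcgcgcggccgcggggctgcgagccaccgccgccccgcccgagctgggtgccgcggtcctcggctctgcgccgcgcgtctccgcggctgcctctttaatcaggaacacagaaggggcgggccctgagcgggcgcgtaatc

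Neither stretch held any of 6 motifs searched on both strands: ACGTG (HIF core), CACGTG (E-box, which contains the HIF core), TCATGTG (M-box, bound by MITF), TGACGTCA (CRE), AGGTCA (nuclear receptor site) and TGATGCAA (ATF4 type). Of 32851 RefSeq windows of the same 250 bases, 16.6% held ACGTG, 6.02% CACGTG, 3.25% TCATGTG, 1.55% TGACGTCA, 14% AGGTCA and 0.791% TGATGCAA. A start inside Vegfa had ACGTG at position -211 from it. Of the 10 genes, 9 had a window in the table. The well-studied hypoxia element of Vegfa lies farther upstream than the stretch shown.

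The windows of Flt1 and Vegfb, whose levels went differently from that of Vegfa, did hold motifs, printed here as 30 bases around them with the motif in capitals. Flt1, at chr5:147726074-147726103 on the minus strand, holds the CRE. Vegfb, at chr19:6987702-6987731 on the minus strand, holds AGGTCA overlapping the M-box read on the other strand.
Flt1: gggggacccctTGACGTCActggaaggagg
Vegfb: cgtgtttAGGTCACATGAgcctcttgcccg
Vegfb held AGGTCA a second time, and Nrp1 held it once. The windows of Vegfc, Pgf, Kdr and Adm held none of the motifs. These matches describe letters in a window and were not tested for use.

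**Figure D1:**
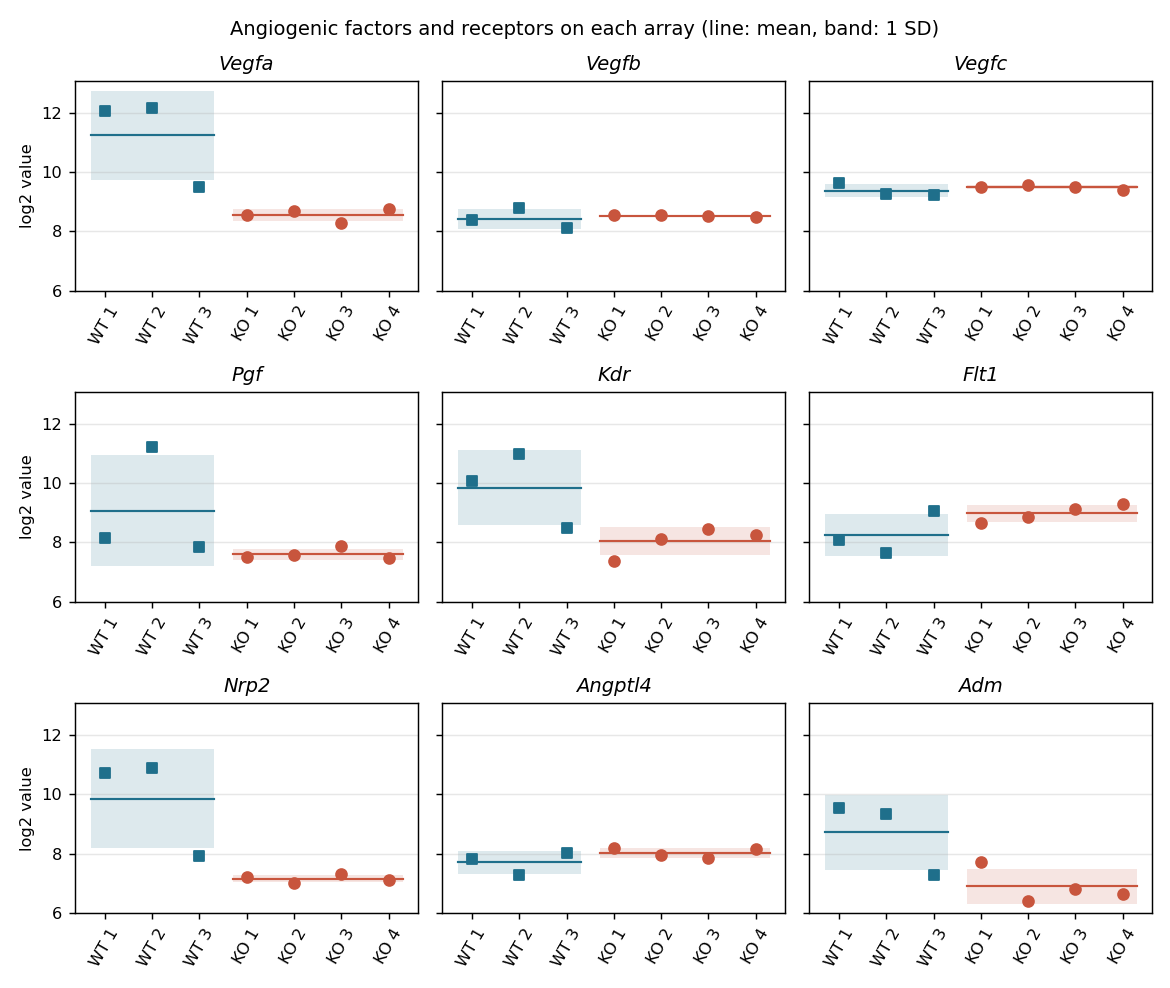
Log2 values (vertical axis) of the 9 measured genes on each array (horizontal axis), with WT arrays as squares and KO arrays as circles; lines are group means and bands 1 SD. Vegfa and Nrp2 stand above 10 on WT 1 and WT 2, while Vegfb and Vegfc stay within 0.66 and 0.38 over all 7 arrays.

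Vegfb, the VEGF-A relative that binds FLT1 and not KDR, measured 8.38, 8.77 and 8.12 (WT 1 to 3) against 8.54, 8.56, 8.51 and 8.49 (KO 1 to 4). The KO arrays lay inside the WT range. Vegfb exceeded the 95th percentile of the negative control probe sets on 0 of 7 arrays. A loss as large as that of Vegfa would fall below the negative control median in KO and could not register in full. The difference was 0.10, with a 95% confidence interval of -0.25 to 0.45 (limma). Against WT 3 alone it was 0.41. Its sign was not stable: after subtraction of each array's negative control median the difference was -0.24, where the median of all genes moved from 0.06 to -0.28.

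Vegfc, the lymphatic growth factor, measured 9.62, 9.26 and 9.24 (WT 1 to 3) against 9.48, 9.58, 9.50 and 9.40 (KO 1 to 4). WT 1 was the highest array and WT 2 and WT 3 the lowest, so the groups overlapped. The difference was 0.12, with a 95% confidence interval of -0.16 to 0.40 (limma), and it was 0.25 against WT 3 alone and -0.22 after subtraction of the negative control median.

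Pgf, which binds FLT1, measured 8.15, 11.23 and 7.85 (WT 1 to 3) against 7.51, 7.57, 7.87 and 7.46 (KO 1 to 4). WT 2 alone was high, and WT 3 lay among the KO arrays. The difference of -1.47, with a standard error of 0.73 (limma, adjusted p = 0.289), was -0.40 without WT 2 and -0.25 against WT 3 alone. Among all genes 24 (0.123%) read at least 2 log2 higher on WT 2 than on every other array, and Pgf was the 1 of the 9 among them. This rule was not planned and describes the profile of Pgf itself, so the share is a description and no test.

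Kdr, the main signalling receptor of VEGF-A, measured 10.07, 10.97 and 8.49 (WT 1 to 3) against 7.38, 8.12, 8.46 and 8.26 (KO 1 to 4). WT 3 exceeded the highest KO array, KO 3, by a margin far smaller than the spread within KO, which had an SD of 0.47. The means were 9.84 ± 1.25 (SD, n = 3) and 8.05 ± 0.47 (SD, n = 4), a difference of -1.79 with a standard error of 0.54 (limma, adjusted p = 0.223). Without WT 3 it was -2.47 (limma, adjusted p = 0.000699), and against WT 3 alone -0.44 (limma, adjusted p = 0.912).

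Flt1, the high-affinity and weakly signalling VEGF receptor, measured 8.08, 7.64 and 9.04 (WT 1 to 3) against 8.66, 8.86, 9.14 and 9.28 (KO 1 to 4). It was low on WT 1 and WT 2, opposite to Kdr, and WT 3 lay among the KO arrays. The difference was 0.73 with a standard error of 0.32 (limma, adjusted p = 0.258). It was 1.12 without WT 3 (limma, adjusted p = 0.00349), 0.42 without WT 2, and -0.06 against WT 3 alone.

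Nrp2, a neuropilin that binds VEGF-C, VEGF-A and class 3 semaphorins, measured 10.71, 10.90 and 7.92 (WT 1 to 3) against 7.23, 6.99, 7.30 and 7.12 (KO 1 to 4). The groups did not overlap, and WT 3 stood again near KO. The means were 9.84 ± 1.67 (SD, n = 3) and 7.16 ± 0.13 (SD, n = 4), a difference of -2.68 with a standard error of 0.65 (limma, adjusted p = 0.223). Without WT 3 it was -3.64 (limma, adjusted p = 9.62e-07), and against WT 3 alone -0.76 (limma, adjusted p = 0.546).

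Angptl4, a secreted inhibitor of lipoprotein lipase that low oxygen and PPAR receptors induce, measured 7.82, 7.28 and 8.03 (WT 1 to 3) against 8.18, 7.94, 7.84 and 8.15 (KO 1 to 4). It was lowest on WT 1 and WT 2, unlike the hypoxia-induced Vegfa. The difference was 0.32, with a 95% confidence interval of -0.11 to 0.75 (limma), and it was near 0 against WT 3 alone.

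Adm, the vasodilator peptide adrenomedullin, measured 9.54, 9.34 and 7.27 (WT 1 to 3) against 7.73, 6.39, 6.82 and 6.64 (KO 1 to 4). KO 1 lay above WT 3, so the groups overlapped. The difference was -1.82 with a standard error of 0.56 (limma, adjusted p = 0.223), or -2.54 without WT 3 (limma, adjusted p = 0.000541). Against WT 3 alone it was -0.37 (limma, adjusted p = 0.933). Adm was the 1 gene of the 9 that did not exceed the median of the negative control probe sets on every array. It did so on 5 of 7, so its lowest values have no level above background. The stricter 95th percentile of these probe sets was exceeded by Vegfa, Kdr and Nrp2 on 2 arrays each. Vegfc, Pgf and Adm exceeded it on 1 array each, and Vegfb, Flt1 and Angptl4 on 0. The values of Flt1 and Angptl4 on every array, and of Vegfa in KO, thus lay within the range of the negative controls.

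**Figure D2:**
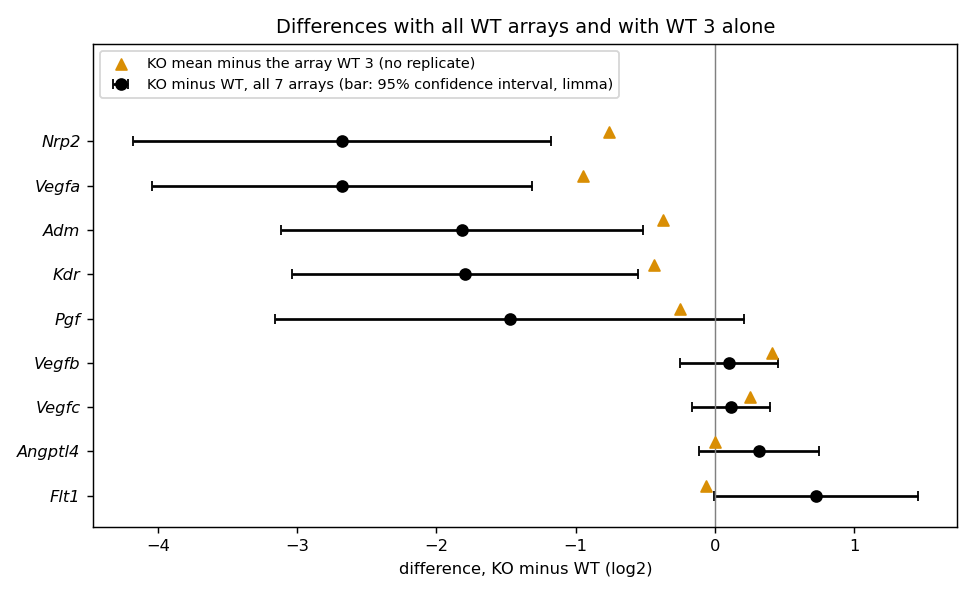
Difference KO minus WT in log2 (horizontal axis) for each gene, with points and bars giving limma's estimate and 95% confidence interval over 7 arrays, and triangles the KO mean minus WT 3 alone. The triangles of Vegfa (-0.95) and Nrp2 (-0.76) lie closer to 0 than their intervals reach.

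Over the 9 genes, 5 read higher on both WT 1 and WT 2 than on any of the other 5 arrays, where 19.4% of all genes did, and 2 read lower on both, where 22% did. WT 3 exceeded every KO array in 3 (18.1% of all genes), lay within their range in 4 (57.7%) and below them in 2 (24.2%). Without WT 3, 6 of the 9 passed an adjusted p of 0.05 in limma (Vegfa, Pgf, Kdr, Nrp2 and Adm lower, Flt1 higher in KO) against 25.3% of all genes (13.8% lower and 11.4% higher). With arrays weighted by their fit 5 passed, 4 lower and 1 higher, against 22.9% (12.6% lower and 10.3% higher). With WT 3 as the lone WT array the median difference of the 9 was -0.25, beside 0.02 for all genes.

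Among Calcrl, Ramp1, Ramp2 and Ramp3, which include parts of the adrenomedullin receptor, the arrays split in both directions. Ramp3, which turns the receptor CALCRL into an adrenomedullin receptor, measured 12.24, 12.00 and 8.61 (WT 1 to 3) against 8.24, 7.77, 7.70 and 8.37 (KO 1 to 4). Its values were high on WT 1 and WT 2 only. Ramp2 measured 7.77, 8.22 and 6.96 (WT 1 to 3) against 6.60 to 7.55 over the KO arrays, and was also highest on WT 1 and WT 2. It exceeded the negative control median on 6 of 7 arrays. Calcrl itself measured 7.16, 7.91 and 9.07 (WT 1 to 3) against 8.25 to 8.61 over the KO arrays, and Ramp1, which turns it into a CGRP receptor, 8.59, 8.11 and 9.64 against 9.46 to 10.01. Calcrl and Ramp1 thus read lowest on WT 1 and WT 2, where Ramp3 read highest. Plxna1, a plexin that signals with neuropilins, measured 11.46, 11.85 and 8.38 (WT 1 to 3) against 7.28 to 7.74 over the KO arrays, a difference of -3.05 (limma, adjusted p = 0.223). Ramp1, Ramp2, Ramp3 and Calcrl were chosen after their values were seen.

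Other genes of these pathways were counted by list, and 0 members of any list passed the adjusted test in limma. Of 17 other angiogenic ligands 5 had a lower mean in KO, where 40.1% of all genes did, and 12 a higher one. Their median was 0.12 beside 0.06 for all genes, and 0.09 against WT 3 alone beside 0.02 for all genes. Angpt2, the antagonist ligand of TIE2, had a WT mean of 8.79 ± 0.48 (SD, n = 3) beside a KO mean of 7.99 ± 0.28 (SD, n = 4). Of 21 other receptors and co-receptors 7 were lower and 14 higher, with a median of 0.16, and of 0.08 against WT 3 alone. Among them Met, the receptor of hepatocyte growth factor, differed by -1.69 and Eng, endoglin, a TGF-beta co-receptor that exceeded the negative control median on 5 of 7 arrays, by -2.15. Cdh5, the cadherin of endothelial junctions, differed by 0.74. Angpt2 and Cdh5 exceeded the 95th percentile of the negative controls on 0 of 7 arrays.

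Of 13 class 3 semaphorins and plexins 7 were lower in KO (40.1% of all genes), with a median of -0.04, and of 0.10 against WT 3 alone. On both WT 1 and WT 2, 4 of the 13 read above the other 5 arrays (19.4% of all genes) and 2 below (22%). L1cam, an adhesion molecule that associates with neuropilin, differed by -1.63 and Sema3a, a repulsive ligand of Nrp1, by 0.38. Sema3a exceeded the 95th percentile of the negative controls on 0 of 7 arrays. Of 30 genes of VEGF receptor signalling 15 were lower and 15 higher, with a median of 0.00, and of -0.07 against WT 3 alone. Prkca, a protein kinase C, had a WT mean of 8.09 ± 0.52 (SD, n = 3) beside a KO mean of 6.87 ± 0.12 (SD, n = 4) without overlap. It exceeded the negative control median on 6 of 7 arrays and the 95th percentile of the negative controls on 0. Akt2 differed by -0.65 and Map2k1 by -0.60. This list thus had no common direction.

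Angiogenesis inhibitors were mostly lower in KO as well: 14 of 17 had a lower mean, where 40.1% of all genes did, 5 of the 17 were lower without overlap, where 5.92% of all genes were, and the median was -0.55. Timp2, an inhibitor of matrix proteases, measured 10.60, 11.15 and 8.27 (WT 1 to 3) against 7.42 to 8.20 over the KO arrays. Spry2, a feedback inhibitor of receptor tyrosine kinases, differed by -1.34 and Dll4, a Notch ligand that exceeded the negative control median on 4 of 7 arrays, by -0.73. Against WT 3 alone the median of this list was -0.03.

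Genes that low oxygen induces read higher on WT 1 and WT 2 than elsewhere in 25 of 28 cases, where 19.4% of all genes did. In KO 27 of 28 had a lower mean (40.1% of all genes) and 7 were lower without overlap (5.92%), with a median of -0.92. Their part in the values of Vegfa was not tested. Plod2, a collagen lysyl hydroxylase, measured 11.48, 12.34 and 8.73 (WT 1 to 3) against 7.77 to 8.26 over the KO arrays. Kdm3a, a histone demethylase, differed by -0.85 and Fam162a, a mitochondrial protein, by -0.90. Against WT 3 alone the median was -0.09, beside 0.02 for all genes. Of 11 HIF subunits and oxygen sensors 9 were lower (40.1% of all genes), with a median of -0.19, and of -0.06 against WT 3 alone. Egln3 is on this list and on that of hypoxia-induced genes. Hif1a, the oxygen-regulated subunit, differed by -0.34, and Egln1 and Egln3, the hydroxylases that mark it for degradation, by -1.02 and -1.18.

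**Figure D3:**
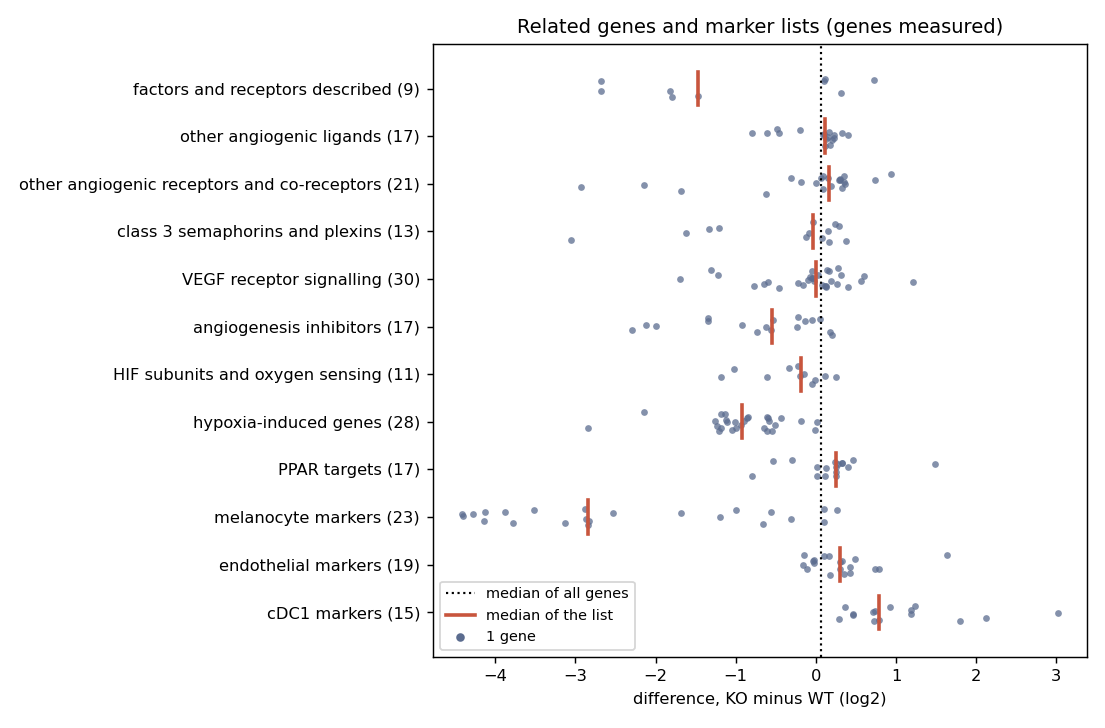
Difference KO minus WT in log2 (horizontal axis) of every measured gene in each list (rows, with the number of genes), with the list median as a thick bar and the median of all genes as a dotted line. Hypoxia-induced genes (-0.92) and angiogenesis inhibitors (-0.55) have medians below the median of all genes (0.06), whereas VEGF receptor signalling (0.00) does not depart from it by more than 0.1.

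Marker lists of other cell types were also compared, and they went in different directions. Of 23 melanocyte markers 20 had a lower mean in KO (40.1% of all genes), and 18 were lower without overlap (5.92%). The median was -2.84, and -0.61 against WT 3 alone. Pmel, a melanosome protein, measured 13.51, 13.59 and 11.62 (WT 1 to 3) against 9.75, 9.68, 9.11 and 7.99 (KO 1 to 4). Met is on this list and on that of receptors. None of the 23 was at or below the negative control median on every array. The array order of that list, with WT 1 and WT 2 highest and WT 3 next, was also that of Vegfa, Nrp2 and Kdr, and its part in their values was not tested. Kit, a marker of melanocytes that dendritic cell precursors also use, did not follow it and differed by 0.26. Of 19 endothelial markers 0 read higher on both WT 1 and WT 2 than elsewhere (19.4% of all genes), and 7 read lower on both (22%). Their median was 0.30, and 0.24 against WT 3 alone. The mean of that list was 6.70 to 6.84 in WT and 6.98 to 7.15 in KO, and Tek, Ptprb, Stab2 and Ecscr were at or below the negative control median on every array. Pecam1, which leukocytes also express, differed by 1.64, Esam, which is also on the cDC2 list, by 0.18 and Vwf by -0.11. In KO 6 of the 19 had a lower mean (40.1% of all genes). Pecam1 alone of the 19 passed the 95th percentile of the negative controls on any array. Kdr, a receptor of endothelial cells, was highest on WT 1 and WT 2, where the mean of this list was lowest. The part of endothelial cells in the values of Kdr was not tested.

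The means of the monocyte and macrophage list and of the cDC2 list were highest on WT 2, as was Pgf, though not every gene followed. The mean of the 13 monocyte and macrophage genes was 8.74, 10.02 and 9.23 on WT 1 to 3 and 8.39 to 8.89 in KO, and that of the 12 cDC2 genes was 8.52, 9.99 and 8.97 beside 8.45 to 8.85. C1qa, a complement gene of macrophages, measured 8.88, 11.43 and 10.13 (WT 1 to 3) against 8.52 to 9.75 over the KO arrays. Lyz2 was also highest on WT 2, at 11.64, while Ccr2 read 10.51, 10.55 and 9.73 on WT 1 to 3. Of the brightest cDC2 genes Sirpa was highest on WT 2, at 11.98, but Notch2 (10.61) and Clec12a (9.89) were lowest there. The part of these lists in the values of Pgf was not tested. Medians of the remaining marker lists were 0.03 for fibroblasts, 0.27 for neutrophils, 0.28 for platelets, 0.15 for B cells, 0.02 for T and NK cells, 0.23 for plasmacytoid dendritic cells, -0.36 for cDC2 and -0.47 for mature dendritic cells. Against WT 3 alone they were 0.00, 0.14, 0.12, -0.20, -0.45, -0.27, -0.18 and -0.52 in the same order, and that of the monocyte and macrophage list was -0.48 beside -0.54 over all WT arrays.

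**Figure D4:**
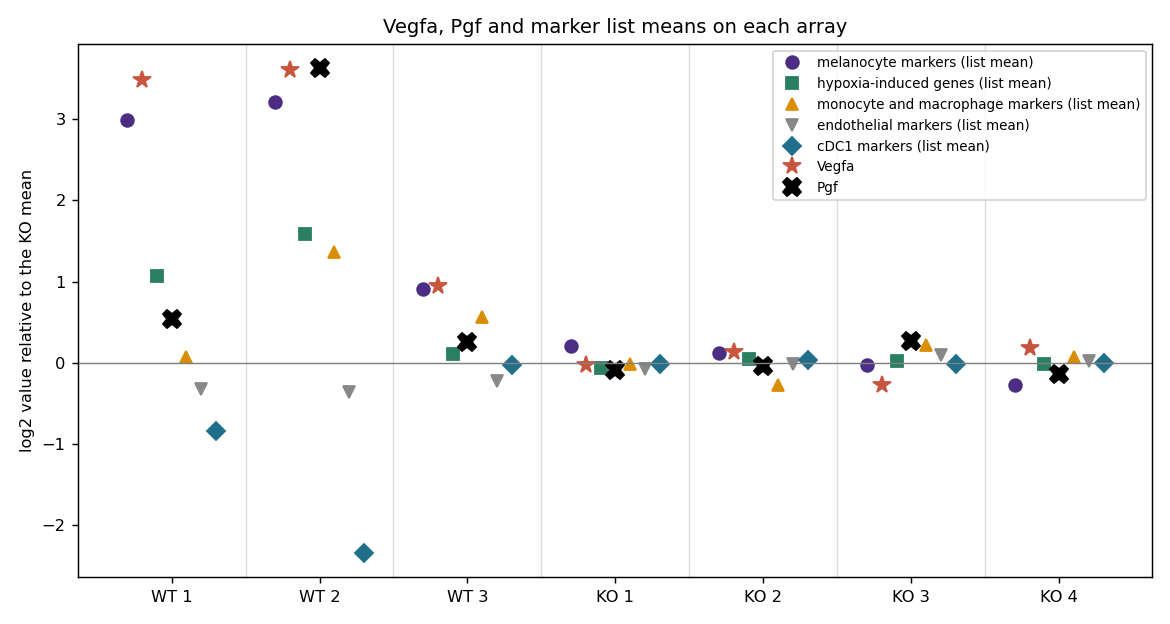
Log2 value relative to the KO mean (vertical axis) of Vegfa, Pgf and the means of 5 gene lists on each array (horizontal axis; points of an array are set side by side). The melanocyte list stands at 2.99, 3.21 and 0.91 on WT 1 to 3 and the hypoxia-induced list at 1.07, 1.58 and 0.11, while the endothelial list stays below 0 on all WT arrays.

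Genes with the profile most like each of the strongly varying genes were found by the root mean square difference of mean-centred log2 values over the 7 arrays. Nearest to Vegfa were Itsn1 (0.18), an endocytic scaffold, Dusp4 (0.18), a phosphatase of MAP kinases, Cdc42ep5 (0.19), Wls (0.19), which carries Wnt proteins to the surface, Dmxl2 (0.21) and Cttn (0.21), an actin regulator. Dusp4 measured 11.48, 11.73 and 9.21 (WT 1 to 3) against 7.92 to 8.52 over the KO arrays. Among the 9 genes themselves Nrp2 was closest to Vegfa at 0.23, Kdr and Adm followed at 0.63 each, and Flt1 was farthest at 2.07.

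Nearest to Nrp2 were Mlkl (0.15), the effector of necroptosis, Gm10639 (0.16) and Sox6 (0.16), a transcription factor. Nearest to Kdr were Mgst1 (0.15), Elovl7 (0.20) and Pon3 (0.22), and nearest to Adm were Adcy3 (0.13), an adenylyl cyclase, Reck (0.28) and Dctd (0.28). Pgf came closest to Fcgr1 (0.27), an Fc receptor, C3ar1 (0.27), a complement receptor, and Mgl2 (0.34), a lectin of macrophages and dendritic cells; Fcgr1 is on the monocyte list and Mgl2 on the cDC2 list. Mgl2 measured 7.03, 11.06 and 7.12 (WT 1 to 3) against 6.59 to 6.94 over the KO arrays, high on WT 2 alone. Some nearest genes had lowest values without a level above background. Elovl7 and Reck exceeded the negative control median on 2 of 7 arrays and Gm10639 on 4. Adcy3, Cdc42ep5 and Wls did so on 5, Mgst1 and Mgl2 on 6, and the other nearest genes on all 7.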

How the data were processed

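Arrays of 3 WT and 4 KO samples, grouped by title, were compared. The authors deposited 1 table of 28846 probe sets on a log2 scale (values from 3.68 to 14.28), for which the submitters' processing notes name RMA and Affymetrix Expression Console 1.1. Dim genes are compressed by RMA, which understates how far they differ, and precision is limited by the number of arrays. No source used here gives the genome build or says which arrays were normalized together.

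The platform annotation gave 19572 transcript probe sets 1 symbol, several to 0 and none to 2634. The probe set with the highest mean was kept per symbol. KO and WT were compared in R 4.3.3 by a linear model without covariates and moderated variances (limma 3.58.1), adjusting p over 19505 genes by Benjamini-Hochberg, and single genes by exact permutation (scipy 1.17.1). Differences are KO minus WT. The fit was tested on simulated data. Negative controls were 5222 probe sets.

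The genes and lists were chosen with earlier results of these data known. Named were the 10 genes, Opa1, 3 genes per related list by smallest unadjusted p, the brightest 3 per marker list (in part printed), and the nearest profiles of genes ranging over more than 2 log2. Others (Cd8a, Ramp1, Ramp2, Ramp3, Calcrl) were chosen after their values were seen.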

Additional observations from a re-analysis of the deposited data

Results flagged for a closer look

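In 87 named genes the 4 KO arrays were searched for an array far from the others (a gap above Dixon's 95% critical value), which chance alone passes in about 1 of 20 groups; 6 passed. None of the 9 angiogenic factors and receptors was among them. The array labelled KO 2 was low for Angpt2, at 7.57. KO 1 was high for Hif1a, at 10.45. KO 1 was low for Wdfy4, a gene of cross-presentation, at 12.40, for the chemokine receptor Ccr2 at 8.46, for Fcgr1 at 8.05, where the other KO arrays lay close together, and for Pon3 at 7.99.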

How the results depend on the processing

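Leaving out 1 array at a time gave 0 to 4931 genes past the adjusted threshold in limma and 0 to 6 of the 9; the calls appeared only without WT 3. Differences then ranged from -3.55 to -2.22 for Vegfa, -0.05 to 0.28 for Vegfb, 0.05 to 0.24 for Vegfc, -2.09 to -0.40 for Pgf, -2.47 to -1.23 for Kdr, 0.42 to 1.12 for Flt1, -3.64 to -2.15 for Nrp2, 0.11 to 0.48 for Angptl4 and -2.54 to -1.41 for Adm. Array weights, lowest for WT 3 (0.241), gave 4458 genes and 5 of the 9: Vegfa at -3.33, Nrp2 at -3.32, Adm at -2.41, Kdr at -2.01 and Flt1 at 0.92; Vegfc turned to -0.02. Subtracting the negative control median turned Vegfb to -0.24, Vegfc to -0.22 and Angptl4 to -0.02. Without WT 1 and WT 2 Flt1 turned to -0.06. The cause of these turns was not tested. Samples with the same replicate number did not deviate together (r across genes of -0.038, 0.046 and -0.017), and the replicate number as a block gave 0 calls, with Vegfa at -2.74 (limma, adjusted p = 0.389). Median centring, quantile normalization, trended and robust variance changed no call or direction of the 9; the mean of all probe sets cannot change the 9 values, since each gene has 1 probe set. The filter on dim genes dropped Angptl4 and Adm and changed none of the other 7.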

Other observations

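A list of genes that PPAR receptors induce, like Angptl4, and of the receptors Ppara and Pparg was mostly higher in KO. Of its 17 genes 14 had a higher mean, as did 11693 of all 19505 genes. Without overlap between the groups 5 were higher, where 7.85% of all genes were. The median was 0.25 beside 0.06 for all genes, and 0.10 against WT 3 alone beside 0.02. In limma 0 passed the adjusted test, with 5 higher and 1 lower at an unadjusted p under 0.05, where 8.98% of all genes were higher and 10.6% lower. Of the 14 with a higher mean, Cyp4a14, Fabp1 and Ucp3 were at or below the negative control median on every array. Cyp4a14 is also among the 5 without overlap and the 5 higher at an unadjusted p under 0.05. The list was not examined after subtraction of the negative control median, which moved the median of all genes to -0.28. Cpt1a, which brings fatty acids into mitochondria, measured 10.55, 10.25 and 10.43 (WT 1 to 3) against 10.75, 10.87, 11.06 and 10.57 (KO 1 to 4), and Ppara, a receptor of this family, differed by 0.33. All KO arrays lay above all WT arrays for both genes, WT 3 included, though for Cpt1a KO 4 (10.57) lay only just above WT 1 (10.55). Of the 5 without overlap, Ppara, Lpl and Cyp4a14 exceeded the 95th percentile of the negative controls on 0 of 7 arrays, and Plin2 and Cpt1a on all 7. Cd36, a fatty acid and thrombospondin receptor that cDC1 express, read 9.55 and 8.77 on WT 1 and WT 2 and 11.31 to 11.51 on the other 5 arrays.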
